A study of Saccharomyces cerevisiae with 21 samples.

Results

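The mRNA levels of the yeast genes for glycolysis, fermentation and the pentose phosphate pathway were compared across strains with altered lipid regulation. The 34 genes were chosen by name from textbook pathways, out of 7122 features counted, with earlier results of these data known. All 34 had enough reads to be tested. They comprise 17 genes of glycolysis, 6 of ethanol fermentation and 11 of the pentose phosphate pathway. Of these, 10 are the major gene of an isoform family, 14 are the minor members of such families and 10 encode an enzyme on their own (single genes).

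RNA was sequenced from 7 strains of *S. cerevisiae* in exponential growth, with 3 libraries each. In synthetic complete medium grew *mga2Δ*, *ino4Δ* and the wild-type strain BY4741, all without a plasmid. The other 4 strains grew in medium lacking uracil and carried a pRS316 plasmid with an mCherry fusion under the *GPD* promoter, which is the promoter of *TDH3*, itself one of the 34 genes. They were wild-type with *OLE1*, *mga2Δ* with *MGA2*, *mga2Δ* with *mga2ΔTM*, and *ino4Δ* with *mga2ΔTM*, and are called the *OLE1*, *MGA2*, *mga2ΔTM* and *ino4Δ mga2ΔTM* strains. Mga2 is a membrane-bound transcription factor that activates the fatty acid desaturase gene *OLE1*, the ΔTM form lacks its transmembrane segment, and Ino4 is an activator of phospholipid synthesis genes. No strain carried an empty plasmid, so the effects of plasmid, medium and expressed gene cannot be told apart in comparisons of plasmid strains with wild-type or with the plasmid-free deletion strains. The labels do not state the parent of the deletion strains, nor whether the 3 libraries of a strain came from separate cultures, so the tests measure the spread between libraries, which may be technical.

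Glycolysis converts glucose to pyruvate, and fermenting yeast turns pyruvate into ethanol through pyruvate decarboxylase and alcohol dehydrogenase. The pentose phosphate pathway branches off at glucose 6-phosphate, first yields NADPH in an oxidative branch and then rearranges sugars in a non-oxidative branch. Many of these enzymes have duplicate genes in budding yeast. One copy is generally strong in cells growing on glucose, whereas the other is weak there and better known from starvation, stress or growth on other carbon sources.

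Libraries held 12552418 to 18372240 counted reads. Levels are given as CPM, the reads of a gene relative to all counted reads of its library, scaled by the trimmed mean of M-values (TMM). Higher or lower calls required more than a 1.5-fold difference and an adjusted p under 0.05 in edgeR. In bulk RNA, less RNA per cell and fewer cells in a given state cannot be told apart. Raw counts of *MGA2* were 7 to 10 in *mga2Δ*, against 2374 to 3107 in wild-type, and those of *INO4* were 18 to 29 in *ino4Δ*, against 140 to 181 in wild-type. The summed level of 8 general stress genes ranged over 4041 to 6484 CPM in *mga2Δ*, 5818 to 7359 in *ino4Δ*, 2420 to 2837 in *OLE1*, 1911 to 3397 in *MGA2*, 1720 to 2510 in *mga2ΔTM* and 3261 to 3803 in *ino4Δ mga2ΔTM*, against 982 to 2075 in wild-type. Wild-type replicate 2 stood apart from its group with the 2075 CPM and *mga2Δ* replicate 1 with the 4041 CPM. The *MGA2* libraries were spread out, at 1911, 2444 and 3397 CPM for replicates 1 to 3. Other strains also had a library further from the rest. Examples are *ino4Δ* replicate 3 with 7359 CPM, against 5818 and 6057, and *mga2ΔTM* replicate 3 with 1720 CPM, against 2287 and 2510.

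Isoforms could be told apart by the 50-base reads only where their sequences differ. Every 50-base window of the coding sequence occurred once in the genome for 25 of the 34 genes. The exceptions were *TDH1* (84.3%), *TDH2* (68.7%), *TDH3* (75.6%), *ENO1* and *ENO2* (76.4% each), *ADH1* and *ADH2* (86.0% each) and *PDC1* and *PDC5* (99.0% each). How the authors treated reads from identical stretches is not stated for these genes, so their split between copies is less certain. The longest stretch common to *TDH3* and *TDH2*, the strongest and the second-strongest gene for glyceraldehyde 3-phosphate dehydrogenase, is shown as the reason for this caution. It has 173 bases, at bases 355 to 527 of both coding sequences, and lies at chrVII:883284-883456 (minus strand) in *TDH3* and at chrX:454155-454327 (minus strand) in *TDH2* of the RefSeq R64 genome.
*TDH3* and *TDH2*: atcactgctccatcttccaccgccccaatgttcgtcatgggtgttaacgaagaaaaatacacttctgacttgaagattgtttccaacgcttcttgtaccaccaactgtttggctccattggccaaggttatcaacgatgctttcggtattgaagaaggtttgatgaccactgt
No 50-base read within it can be placed in one of the genes. In contrast, the longest identical run between the members of the pentose phosphate pairs was 20 bases in *GND1* and *GND2*, 17 bases in *TKL1* and *TKL2* as well as in *TAL1* and *NQM1*, and 8 bases in *SOL3* and *SOL4*.

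In wild-type, levels per coding length spanned 4 orders of magnitude. *TDH3* was highest at 20922 ± 459 CPM per kb (SD, n = 3), followed by *FBA1*, the aldolase gene, at 15005 ± 238 CPM per kb. *GPM1*, *ENO2*, *CDC19* and *PDC1* came next, at 10419 ± 388, 10371 ± 268, 10243 ± 102 and 9714 ± 289 CPM per kb, and the first 3 of these did not differ beyond their spread. Per kb of window starts that occur once in the genome, *ENO2* stood at 14107 CPM, above *GPM1* at 11154 and *CDC19* at 10588 CPM, so the place of *ENO2* depends on the length used. At the other end were *GND2* at 4.99 ± 1.19, *PDC6* at 1.86 ± 0.429, *ADH2* at 1.56 ± 0.124 and *TKL2* at 1.54 ± 0.58 CPM per kb, and *PDC6*, *ADH2* and *TKL2* were within each other's spread.

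Across the 6 strains set against wild-type, higher levels were nearly all in minor isoforms and lower levels mostly in major and single genes. In *mga2Δ*, 9 of the 34 genes were called higher and 1 lower, where 9.52% of all tested genes were called higher and 2.38% lower. In *ino4Δ*, 9 were higher and 15 lower, beside 19.2% and 10.1% of all genes. In *OLE1*, 6 were higher and 0 lower, beside 6.08% and 0.99%. In *MGA2*, 6 were higher and 1 lower, beside 3.42% and 0.552%. In *mga2ΔTM*, 6 were higher and 1 lower, beside 6.49% and 1.46%. In *ino4Δ mga2ΔTM*, 9 were higher and 14 lower, beside 17.9% and 9.3%. All 9 higher genes in *mga2Δ* and all 9 in *ino4Δ* were among the 14 minor isoforms. The minor isoforms also made up 5 of 6 higher genes in *OLE1*, 5 of 6 in *MGA2*, 6 of 6 in *mga2ΔTM* and 8 of 9 in *ino4Δ mga2ΔTM*, and the remaining gene was *ADH1* each time. The median log2 fold change of the 14 minor isoforms was 0.91 in *mga2Δ*, 1.57 in *ino4Δ*, 0.66 in *OLE1*, 0.54 in *MGA2*, 0.69 in *mga2ΔTM* and 0.84 in *ino4Δ mga2ΔTM*. That of the 20 major and single genes was -0.18, -0.68, -0.17, -0.20, -0.14 and -0.71 in the same order of strains, while the median of all tested genes lay between -0.008 and 0.028. The 6 comparisons share the wild-type libraries and are therefore not independent. *GND2*, *TKL2* and *NQM1* were called higher in all 6 strains, no gene was called lower in all 6, and *PDC1*, *ZWF1*, *RPE1* and *TAL1* were called in none. Without wild-type replicate 2, the minor isoforms called higher numbered 10 in *ino4Δ*, 7 in *OLE1*, 7 in *MGA2*, 9 in *mga2ΔTM* and 9 in *ino4Δ mga2ΔTM*, and remained 9 in *mga2Δ*. The gains were *PYK2* in *ino4Δ*, *GLK1* and *SOL4* in *OLE1*, *HXK1*, *GLK1* and *PYK2* in *MGA2*, where *ADH3* was lost, *HXK1*, *GLK1* and *SOL4* in *mga2ΔTM*, and *HXK1* in *ino4Δ mga2ΔTM*. Without *MGA2* replicate 1, *ADH1* was called higher in *ino4Δ* and *mga2ΔTM* and *PDC6* in *OLE1*, and *HXK2* was called lower in *ino4Δ*, *TDH2* in *MGA2* and *TAL1* in *ino4Δ mga2ΔTM*. Without *mga2Δ* replicate 1, *TDH1* was lost in *mga2Δ*, and *HXK2* in *ino4Δ* and *TAL1* in *ino4Δ mga2ΔTM* were called lower. The *MGA2* count fell to 2 without *MGA2* replicate 3 or without wild-type replicate 3, and to 1 in a fit of these strains alone. The shares of all genes called in these runs are not given here, so the gains and losses have no background beside them.

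**Figure D1:**
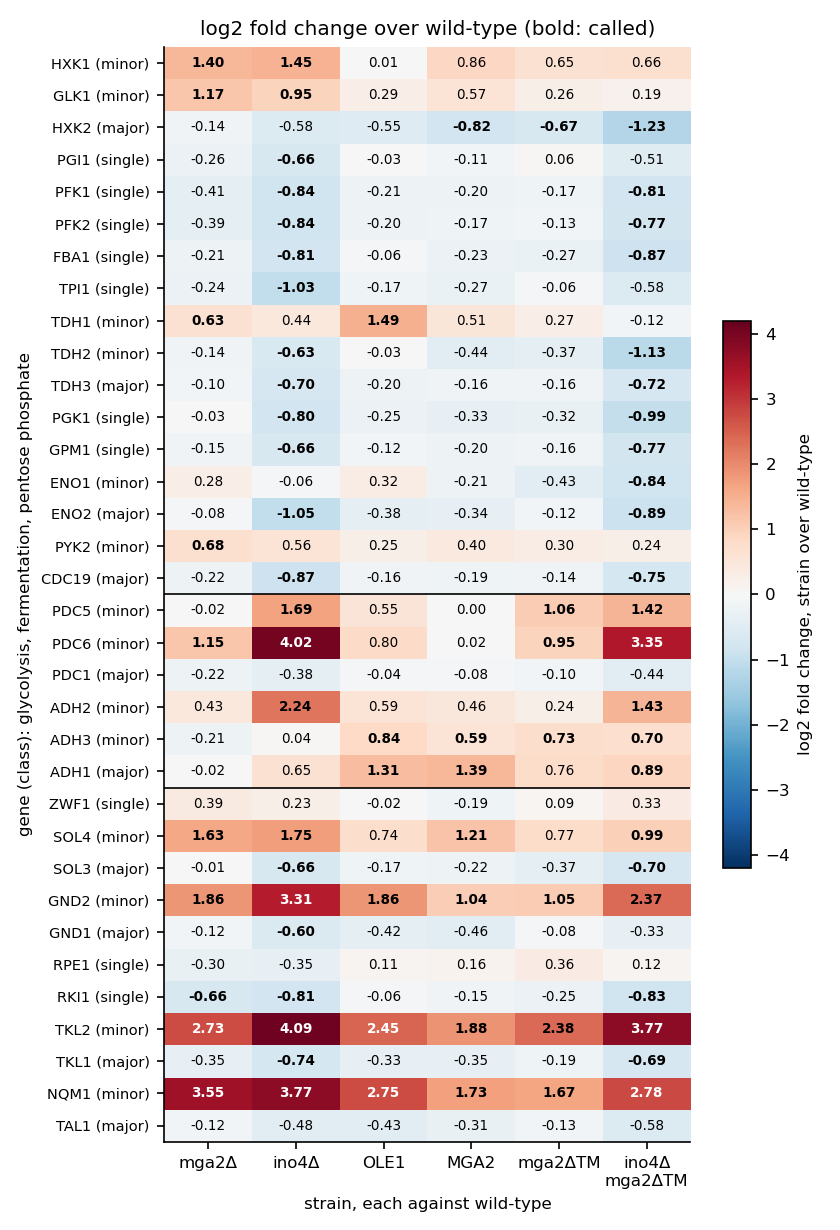
Log2 fold change of each of the 34 genes (rows, with their class) in each of 6 strains over wild-type (columns). Bold values passed a fold change of 1.5 and an adjusted p of 0.05 in edgeR, and the minor pentose phosphate isoforms *GND2*, *TKL2* and *NQM1* are bold in all 6 columns.

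The minor genes of the pentose phosphate pathway showed the broadest increase. *NQM1* encodes the second transaldolase beside *TAL1*, an enzyme that moves 3-carbon units in the non-oxidative branch. It reached 109, 141 and 138 CPM in *mga2Δ* and 146, 140 and 165 CPM in *ino4Δ*, against 9.26, 13.9 and 9.99 CPM in wild-type. In the plasmid strains it had 73.2, 78.8 and 70.8 CPM in *OLE1*, 23.2, 33.8 and 52.6 in *MGA2*, 36.3, 41.7 and 27.1 in *mga2ΔTM* and 82.5, 71.6 and 72.4 in *ino4Δ mga2ΔTM*. All 18 libraries of the mutant and overexpression strains lay above all wild-type libraries. The log2 fold change over wild-type was 3.55 ± 0.24 (SE) in *mga2Δ*, which is 11.8-fold (edgeR, adjusted p = 1.72e-08), and 3.77 ± 0.24 in *ino4Δ*, 13.6-fold (edgeR, adjusted p = 1.12e-09). It was smallest in *mga2ΔTM* at 1.67 ± 0.24 (edgeR, adjusted p = 5.43e-05). *TAL1* itself was called in no strain and its log2 fold changes ranged between -0.58 and -0.12.

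*TKL2* is the minor gene for transketolase, which moves 2-carbon units. It had 15.8, 21.9 and 25 CPM in *mga2Δ* and 43.6, 47.7 and 69.2 CPM in *ino4Δ*, against 2.5, 4.53 and 2.45 CPM in wild-type. The plasmid strains gave 16.6, 18.8 and 16.1 CPM in *OLE1*, 4.79, 13.3 and 16.5 in *MGA2*, 15.2, 22.9 and 11.2 in *mga2ΔTM* and 44.5, 52.0 and 32.1 in *ino4Δ mga2ΔTM*. Again no library overlapped with wild-type, although *MGA2* replicate 1 at 4.79 CPM lay just above wild-type replicate 2 at 4.53 CPM. The change was 17-fold in *ino4Δ* (log2 4.09 ± 0.40, edgeR adjusted p = 1.37e-07), 13.6-fold in *ino4Δ mga2ΔTM* (3.77 ± 0.40, adjusted p = 2.99e-07) and 6.65-fold in *mga2Δ* (2.73 ± 0.40, adjusted p = 6.74e-05). The 3.67-fold difference in *MGA2* (edgeR adjusted p = 0.00675) was not called by limma-voom or in a fit of these strains alone.

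*GND2* is the minor gene for 6-phosphogluconate dehydrogenase, the second NADPH-producing step. It had 19.7, 28.7 and 31.6 CPM in *mga2Δ* and 65.4, 65.6 and 87.8 CPM in *ino4Δ*, against 5.5, 8.99 and 7.67 CPM in wild-type. Among plasmid strains it had 24.8, 26.5 and 29.1 CPM in *OLE1*, 11.4, 15 and 19.1 in *MGA2*, 14.1, 20.4 and 11.5 in *mga2ΔTM* and 43.0, 42.1 and 29.5 in *ino4Δ mga2ΔTM*. All of these exceeded the highest wild-type library. The fold change was 9.9 in *ino4Δ* (edgeR, adjusted p = 9.56e-09), 3.62 in *mga2Δ* (adjusted p = 3.42e-05) and about the same in *OLE1* at 3.64 (adjusted p = 5.05e-05). It was not called in *MGA2* in a fit of these strains alone or when *MGA2* replicate 3, wild-type replicate 1 or wild-type replicate 3 was left out, nor in *mga2ΔTM* without *mga2ΔTM* replicate 2.

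*SOL4*, the minor gene for 6-phosphogluconolactonase, varied widely between libraries of one strain. It had 34.6, 64.5 and 58.9 CPM in *mga2Δ* and 44.0, 50.5 and 77.6 CPM in *ino4Δ*, against 12.9, 27.9 and 10.6 CPM in wild-type. Wild-type replicate 2, the library with the high stress gene sum, held the 27.9 CPM. The increase was called in *mga2Δ* (3.09-fold, edgeR adjusted p = 0.00164), *ino4Δ* (3.37-fold, adjusted p = 0.000346), *MGA2* (2.32-fold, adjusted p = 0.0361) and *ino4Δ mga2ΔTM* (1.98-fold, adjusted p = 0.0232). The *MGA2* call was lost with library totals as the scaling, with no low-count filter, in a fit of these strains alone and without any one of 4 libraries, and the *ino4Δ mga2ΔTM* call without any one of 3. In *OLE1* and *mga2ΔTM* the log2 fold changes were 0.74 ± 0.35 and 0.77 ± 0.36 and did not pass the test.

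**Figure D2:**
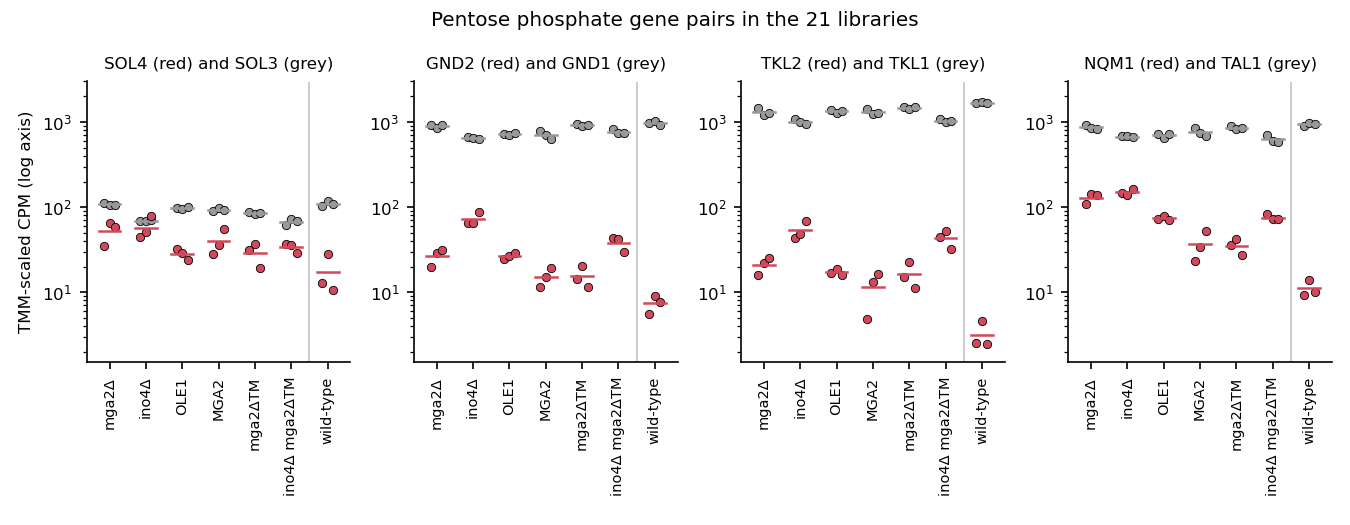
TMM-scaled CPM on a log axis of the minor gene (red) and the major gene (grey) of 4 pentose phosphate pairs in each library, with the mean of 3 libraries as a bar. Wild-type is at the right of each panel. The red points of *GND2*, *TKL2* and *NQM1* lie above wild-type in every other strain, while *SOL4* in *OLE1* and *mga2ΔTM* overlaps with wild-type.

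The upstream sequences of these 4 genes are shown because they hold the letters of the stress response element, AGGGG on either strand, which the yeast stress factors Msn2 and Msn4 bind. Each stretch is read 5′ to 3′ along the gene and taken from the 250 bases before the start codon in the RefSeq R64 genome, with the element or its complement in capitals and 20 bases on each side. It lies 146 to 102 bases before the start codon in *SOL4* (chrVII:985826-985870, plus strand), 184 to 140 in *GND2* (chrVII:1004440-1004484, plus strand), 97 to 53 in *TKL2* (chrII:476490-476534, minus strand) and 196 to 141 in *NQM1* (chrVII:581577-581632, minus strand).
*SOL4*: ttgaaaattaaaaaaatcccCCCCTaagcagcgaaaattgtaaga
*GND2*: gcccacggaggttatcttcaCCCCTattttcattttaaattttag
*TKL2*: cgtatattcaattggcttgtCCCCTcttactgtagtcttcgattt
*NQM1*: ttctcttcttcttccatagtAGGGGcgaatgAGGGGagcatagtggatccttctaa
The letters occur in 18.8% of 6001 promoters of this length, and in 14 of the 34 genes: 7 of 14 minor, 5 of 10 major and 2 of 10 single genes. They were also found upstream of the major partners *SOL3*, *TKL1* and *TAL1*, which were called higher in no strain. Among the minor genes they were missing from the windows of *HXK1*, *TDH2*, *ENO1*, *PDC5*, *PDC6*, *ADH2* and *ADH3*. The part of the element in the levels of any of these genes was not tested. The Gcr1 letters CTTCC were found in 15 of 34 (39.3% of all promoters), the Rap1 letters ACCCANNCA in 1 (2.55%), the Ino2-Ino4 core CATGTG in 1, *ENO1* (5.57%), and the E-box CACGTG in 0 (2.73%). CATGTG and CACGTG overlap in all but their middle letters, and a match is only a match of letters.

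The oxidative and non-oxidative trunk genes moved less. *ZWF1*, glucose 6-phosphate dehydrogenase and the entry enzyme of the pathway, was called in no comparison with wild-type, at log2 fold changes of -0.19 to 0.39. Its upstream window held 5 matches of AGGGG, the most of the 34 genes. *RKI1*, ribose 5-phosphate isomerase, had 47.7, 28.4 and 31.3 CPM in *mga2Δ*, 35.5, 34 and 27.1 CPM in *ino4Δ* and 35.2, 31 and 29.6 CPM in *ino4Δ mga2ΔTM*, against 65.7, 44.2 and 59.9 CPM in wild-type. It was called lower in all 3 strains, 1.58-fold in *mga2Δ* (edgeR, adjusted p = 0.00384), 1.76-fold in *ino4Δ* (adjusted p = 0.000311) and 1.77-fold in *ino4Δ mga2ΔTM* (adjusted p = 0.000278). The libraries of *mga2Δ* and wild-type overlapped, and the *mga2Δ* call was lost with library totals as the scaling, in the fit of only these strains and without any one of 3 libraries. *SOL3* and *TKL1* were lower in both strains with *INO4* deleted, by 0.66 ± 0.06 and 0.74 ± 0.08 on the log2 scale in *ino4Δ* and by 0.70 ± 0.06 and 0.69 ± 0.08 in *ino4Δ mga2ΔTM*. *GND1* was lower in *ino4Δ* at 1.51-fold (edgeR, adjusted p = 9.88e-07), next to the 1.5-fold minimum, and was not called without wild-type replicate 2.

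The hexokinase genes were called in different strains, *HXK2* lower in 3 plasmid strains and *HXK1* and *GLK1* higher in *mga2Δ* and *ino4Δ*. *HXK2*, the hexokinase that dominates on glucose and takes part in glucose repression, had 841, 660 and 739 CPM in *ino4Δ mga2ΔTM*, 1135, 912 and 927 in *MGA2* and 1120, 1018 and 1180 in *mga2ΔTM*, against 1596, 1820 and 1849 CPM in wild-type. It was called lower in these 3 strains, by 2.35-fold (edgeR, adjusted p = 4.09e-09), 1.77-fold (adjusted p = 1.34e-05) and 1.59-fold (adjusted p = 3.68e-05). *OLE1* with 1176, 1188 and 1231 CPM and *ino4Δ* with 1215, 1167 and 1138 CPM also lay below all wild-type libraries, but at log2 fold changes of -0.55 ± 0.09 and -0.58 ± 0.09 they did not exceed the fold minimum. In *mga2Δ*, *HXK2* had 1558, 1632 and 1599 CPM, which overlapped with wild-type. All 5 strains with a log2 difference under -0.5 were the 4 plasmid strains and *ino4Δ*. *HXK1*, the hexokinase that glucose represses, had 437, 981 and 837 CPM in *mga2Δ* and 590, 711 and 1034 CPM in *ino4Δ*, against 251, 437 and 168 CPM in wild-type. It was called higher in both, 2.63-fold (edgeR adjusted p = 0.00271) and 2.73-fold (adjusted p = 0.000901), although *mga2Δ* replicate 1 and wild-type replicate 2 both had 437 CPM. The *mga2Δ* call was lost in a fit of these strains alone. *GLK1*, the glucokinase gene, behaved alike, with 835, 1353 and 1288 CPM in *mga2Δ* and 882, 960 and 1137 CPM in *ino4Δ*, against 407, 766 and 372 CPM in wild-type. It was 2.25-fold higher in *mga2Δ* (edgeR adjusted p = 0.00127) and 1.93-fold higher in *ino4Δ* (adjusted p = 0.00271). Its coding sequence overlaps the reading frame YCL042W, and the strand setting of the counting is not stated. In no plasmid strain was *HXK1* or *GLK1* called with all libraries. Without wild-type replicate 2, *HXK1* passed in *MGA2*, *mga2ΔTM* and *ino4Δ mga2ΔTM*, at log2 fold changes of 1.29, 1.07 and 1.1, and *GLK1* in *OLE1*, *MGA2* and *mga2ΔTM*, at 0.68, 0.95 and 0.63.

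Most major and single genes of glycolysis were lower in the strains with *INO4* deleted. In *ino4Δ*, 10 of these 11 genes were called lower, where 10.1% of all tested genes were, and in *ino4Δ mga2ΔTM* 9 of 11, beside 9.3%. Among the 7 major and single genes of the pentose phosphate pathway, 4 were lower in *ino4Δ* and 3 in *ino4Δ mga2ΔTM*, and of *PDC1* and *ADH1* neither was. *ENO2*, the main enolase gene, had 6447, 6459 and 6864 CPM in *ino4Δ* and 7288, 7478 and 7333 CPM in *ino4Δ mga2ΔTM*, against 13794, 13223 and 13867 CPM in wild-type. These groups were far apart, at log2 -1.05 ± 0.07 in *ino4Δ* (edgeR, adjusted p = 7.71e-10) and -0.89 ± 0.07 in *ino4Δ mga2ΔTM* (adjusted p = 4.03e-09). *TPI1*, triose phosphate isomerase, had 2436, 2442 and 2436 CPM in *ino4Δ*, against 4937, 5030 and 4974 CPM in wild-type, a 2.04-fold decrease (edgeR adjusted p = 2.79e-08). In *ino4Δ mga2ΔTM* it had 2695, 3650 and 3669 CPM, where the 1.49-fold difference missed the fold minimum. *CDC19*, the main pyruvate kinase, had 8777, 8464 and 8027 CPM in *ino4Δ* and 9462, 8867 and 9187 CPM in *ino4Δ mga2ΔTM*, against 15368, 15257 and 15559 CPM in wild-type. It was 1.83-fold lower in *ino4Δ* (edgeR adjusted p = 2.7e-08) and 1.68-fold lower in *ino4Δ mga2ΔTM* (adjusted p = 1.36e-07). *PFK1* and *PFK2*, the subunits of phosphofructokinase, fell alike, by 0.84 ± 0.07 and 0.84 ± 0.06 on the log2 scale in *ino4Δ* and by 0.81 ± 0.07 and 0.77 ± 0.06 in *ino4Δ mga2ΔTM*. *FBA1*, *PGK1* (phosphoglycerate kinase), *GPM1* (phosphoglycerate mutase) and *TDH3* were also called lower in both strains, at log2 fold changes between -0.66 and -0.99. *PGI1*, the isomerase that opens glycolysis after phosphorylation, was called lower in *ino4Δ* at -0.66 ± 0.07 and had -0.51 ± 0.07 in *ino4Δ mga2ΔTM*. *PDC1*, the main pyruvate decarboxylase, had log2 fold changes of -0.38 ± 0.07 and -0.44 ± 0.07 in these strains, which did not exceed the fold minimum although the libraries did not overlap.

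The same genes were close to wild-type in the other strains. *TDH3* had log2 fold changes of -0.10 ± 0.05 in *mga2Δ*, -0.20 ± 0.05 in *OLE1*, -0.16 ± 0.05 in *MGA2* and -0.16 ± 0.05 in *mga2ΔTM*. The plasmids of the last 3 carry its promoter. *PFK1* and *PFK2* lay below wild-type without overlap in *mga2Δ*, at -0.41 ± 0.07 and -0.39 ± 0.06, which is under the fold minimum. In all, 10 of the 34 genes in *mga2Δ*, 9 in *OLE1*, 8 in *MGA2* and 7 in *mga2ΔTM* passed the adjusted p alone in the lower direction, against 19 each in *ino4Δ* and *ino4Δ mga2ΔTM*. The share of all tested genes at this looser threshold was not computed, so these counts have no background beside them.

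The 34 genes took 8.74%, 8.81% and 9.22% of all counted reads in *ino4Δ* and 8.79%, 8.72% and 8.47% in *ino4Δ mga2ΔTM*, against 11.8%, 12.1% and 11.9% in wild-type. The other strains had 11.7 ± 0.0966% in *mga2Δ*, 11.4 ± 0.282% in *OLE1*, 11 ± 0.338% in *MGA2* and 11.5 ± 0.34% in *mga2ΔTM* (SD, n = 3). Counted against the reads of nuclear protein-coding genes only, the share was 12.1 ± 0.095% in *ino4Δ* and 12.0 ± 0.139% in *ino4Δ mga2ΔTM*, against 14.6 ± 0.31% in wild-type. The difference of *mga2Δ* from wild-type changed sign with this denominator, at -0.252 points of all reads and 0.0647 points of nuclear protein-coding reads. The number of lower calls depended on the scaling. With library totals in place of TMM, 7 genes were lower and 12 higher in *ino4Δ*, and 8 were lower and 10 higher in *ino4Δ mga2ΔTM*, while the median of all genes moved to 0.24 and 0.23. Relative to that median the changes were as before, for example -1.07 for *ENO2* in *ino4Δ* and -1.08 with TMM. The shares of all genes called under library totals are not given here.

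**Figure D3:**
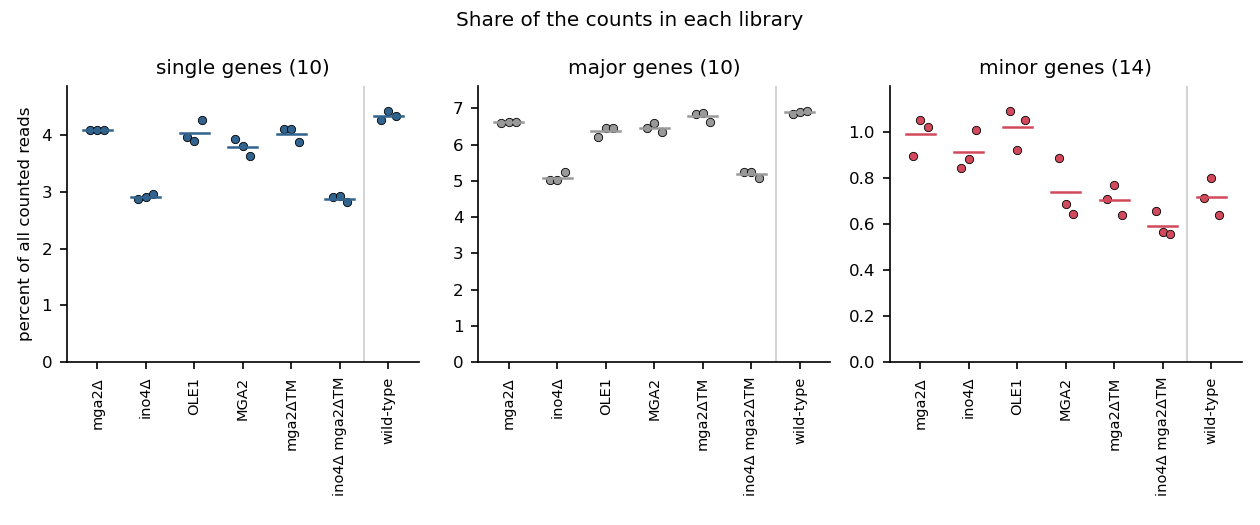
Percent of all counted reads that fell on the 10 single, 10 major and 14 minor genes in each library (points) with the mean of 3 libraries (bars), wild-type at the right. In the panels of single and of major genes, all 6 libraries of *ino4Δ* and *ino4Δ mga2ΔTM* lie below every other library.

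Isoforms of lower glycolysis differed from each other. *TDH1*, the glyceraldehyde 3-phosphate dehydrogenase gene known from stationary phase, had 3677, 2432 and 3283 CPM in *OLE1*, against 1278, 1249 and 826 CPM in wild-type. This was 2.8-fold higher (edgeR, adjusted p = 0.00013) and was the largest change of *TDH1* among the 6 strains. The increase in *mga2Δ*, with 1930, 1636 and 1610 CPM, was 1.54-fold (edgeR adjusted p = 0.0318) and was lost without any one of 4 libraries. *TDH2* was lower in *ino4Δ* at -0.63 ± 0.12 and in *ino4Δ mga2ΔTM* at -1.13 ± 0.12 on the log2 scale. *ENO1*, the second enolase gene, was called lower in *ino4Δ mga2ΔTM* and in no other strain, with 1644, 1395 and 1399 CPM, against 2529, 2964 and 2441 CPM in wild-type (1.79-fold, edgeR adjusted p = 0.000112). In *ino4Δ* it had 2439, 2578 and 2598 CPM, which overlapped with wild-type. *PYK2*, the minor pyruvate kinase, was called higher in *mga2Δ* and in no other strain, with 48.3, 89.8 and 78.1 CPM, against 39.8, 60.6 and 34.7 CPM in wild-type (1.6-fold, edgeR adjusted p = 0.0164). Its libraries overlapped with wild-type and the call was lost without any one of 4 libraries.

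The minor fermentation genes *PDC5*, *PDC6* and *ADH2* were called higher in both strains with *INO4* deleted. *PDC6*, a minor pyruvate decarboxylase known from sulfur limitation, had 68.4, 38.5 and 46.1 CPM in *ino4Δ* and 41.8, 26.9 and 27.7 CPM in *ino4Δ mga2ΔTM*, against 3.25, 3.82 and 2.38 CPM in wild-type. Raw counts were 646 to 1219 in *ino4Δ*, against 36 to 54 in wild-type. The log2 fold change was 4.02 ± 0.26 in *ino4Δ*, 16.2-fold (edgeR, adjusted p = 8.66e-10), and 3.35 ± 0.26 in *ino4Δ mga2ΔTM*, 10.2-fold (adjusted p = 5.42e-09). It was 2.21-fold in *mga2Δ*, with 6.41, 8.11 and 6.36 CPM (edgeR adjusted p = 0.00368), and 1.93-fold in *mga2ΔTM*, with 7.49, 4.84 and 5.86 CPM (adjusted p = 0.0209). The *mga2ΔTM* call did not hold with limma-voom or without any one of 3 libraries. In *MGA2*, *PDC6* had 4.29, 2.41 and 2.91 CPM and overlapped with wild-type.

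*PDC5*, the isoform that replaces *PDC1* when *PDC1* is lost or thiamine is scarce, had 116, 78.9 and 84.7 CPM in *ino4Δ* and 71.5, 76.1 and 84.1 CPM in *ino4Δ mga2ΔTM*, against 32.0, 27.7 and 27.2 CPM in wild-type. It was 3.22-fold higher in *ino4Δ* (edgeR, adjusted p = 4.3e-06) and 2.67-fold higher in *ino4Δ mga2ΔTM* (adjusted p = 2.94e-05). *mga2ΔTM* had 67.5, 35.5 and 77.4 CPM, with replicate 2 well below the others, and was 2.08-fold higher (edgeR adjusted p = 0.00201). *mga2Δ* with 28.4, 27.0 and 30.2 CPM and *MGA2* with 36.6, 27.4 and 23.2 CPM overlapped with wild-type. *ADH2*, the alcohol dehydrogenase that oxidizes ethanol and is repressed by glucose, had 6.28, 9.77 and 7.21 CPM in *ino4Δ* and 3.13, 3.63 and 6.33 CPM in *ino4Δ mga2ΔTM*, against 1.56, 1.56 and 1.79 CPM in wild-type. The increase was 4.72-fold (edgeR adjusted p = 2.3e-06) and 2.69-fold (adjusted p = 0.000444). These are low levels, at 22 to 27 raw counts in wild-type, and *ADH2* shares windows with *ADH1*.

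**Figure D4:**
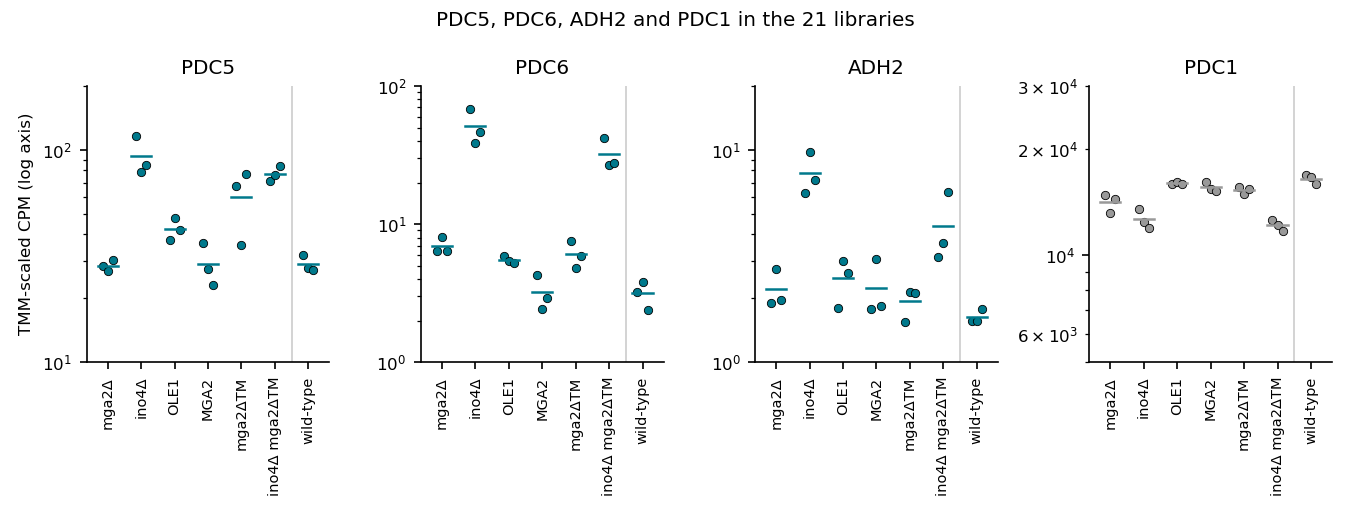
TMM-scaled CPM on a log axis of *PDC5*, *PDC6*, *ADH2* and the major gene *PDC1* in each library (points), with the mean of 3 libraries (bars) and wild-type at the right. *ino4Δ* and *ino4Δ mga2ΔTM* lie above wild-type in the first 3 panels and below it in the panel of *PDC1*.

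*ADH1*, the main ethanol-forming alcohol dehydrogenase, was the only major gene called higher in any strain. It had 3551, 5399 and 4439 CPM in *OLE1*, 1726, 5294 and 7138 CPM in *MGA2* and 3180, 3305 and 3523 CPM in *ino4Δ mga2ΔTM*, against 2236, 1840 and 1338 CPM in wild-type. *MGA2* replicate 1 lay within the wild-type range, whereas the other 2 *MGA2* libraries were above every wild-type library. The change was 2.47-fold in *OLE1* (edgeR, adjusted p = 0.00702), 2.62-fold in *MGA2* (adjusted p = 0.00893) and 1.85-fold in *ino4Δ mga2ΔTM* (adjusted p = 0.0237). The *MGA2* call was lost without wild-type replicate 3 or *MGA2* replicate 3 and in the fit of only *MGA2* and wild-type, and the *ino4Δ mga2ΔTM* call without any one of 3 libraries. *ino4Δ* with 2822, 2816 and 2836 CPM and *mga2ΔTM* with 2773, 2926 and 3480 CPM lay above all wild-type libraries, at adjusted p = 0.0869 and 0.0905 in edgeR. Both were called without *MGA2* replicate 1, at log2 fold changes of 0.63 and 0.74, and in fits of the compared strains alone, at 0.66 and 0.78. Library totals also called *ino4Δ* and DESeq2 also called *mga2ΔTM*. *ADH3*, the mitochondrial isoform, was called higher in all 4 plasmid strains and in neither plasmid-free deletion strain. It had 322, 396 and 353 CPM in *OLE1*, 331, 317 and 339 in *mga2ΔTM*, 302, 322 and 341 in *ino4Δ mga2ΔTM* and 221, 317 and 359 in *MGA2*, against 225, 180 and 191 CPM in wild-type. The log2 fold changes were 0.84 ± 0.13, 0.73 ± 0.13, 0.70 ± 0.13 and 0.59 ± 0.13, and that of *MGA2*, with 1 library in the wild-type range, lay at the 1.5-fold minimum and did not hold with limma-voom, DESeq2, RLE scaling, the replicate block or without most single libraries.

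*ADH4*, a further alcohol dehydrogenase gene that the zinc-responsive activator Zap1 induces when zinc is scarce, was singled out after its values were seen. It had 46.1, 39.0 and 44.2 CPM in *ino4Δ mga2ΔTM* and 1079, 137 and 60.9 CPM in *MGA2*, against 1190, 2075 and 1810 CPM in wild-type. Within *MGA2*, replicate 1 was lowest in *ADH1* and highest in *ADH4*, and replicate 3 was the reverse. In wild-type, replicate 1 likewise had the highest *ADH1* and the lowest *ADH4*, but replicate 3, lowest in *ADH1*, was not highest in *ADH4*. The order was also opposite in *OLE1* and *ino4Δ*, and neither opposite nor the same in *ino4Δ mga2ΔTM*. In *ino4Δ*, however, *ADH1* was nearly flat at 2822, 2816 and 2836 CPM. Both genes had the libraries in the same order in *mga2Δ* (*ADH1* 1663, 1753 and 1932 CPM, *ADH4* 756, 1076 and 1101 CPM). The same held in *mga2ΔTM* (2773, 2926 and 3480 CPM, and 150, 162 and 166 CPM). With 3 libraries per strain, equal or opposite orders arise easily. *ADH4* was called lower in *ino4Δ* (log2 -2.82 ± 0.67, edgeR adjusted p = 0.00153), *OLE1* (-2.12 ± 0.65, adjusted p = 0.0276), *mga2ΔTM* (-3.41 ± 0.69, adjusted p = 0.00147) and *ino4Δ mga2ΔTM* (-5.29 ± 0.76, adjusted p = 1.13e-05). The zinc transporter gene *ZRT1*, also chosen after its values were seen, had 361, 407 and 267 CPM in *ino4Δ mga2ΔTM* and 3397, 2585 and 711 CPM in *MGA2*, against 3875, 4598 and 5707 CPM in wild-type. It had 2736, 2632 and 2844 CPM in *mga2Δ* and 2022, 2473 and 2948 CPM in *mga2ΔTM*, which overlapped. *ZRT1* was called lower in *ino4Δ* and *ino4Δ mga2ΔTM* and in no other strain. *ZAP1*, *ZPS1* and *ZRT3* were looked at with it and were also called lower in both. In the other strains the calls of these zinc genes differed. The part of zinc supply in the level of *ADH1* was not tested.

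**Figure D5:**
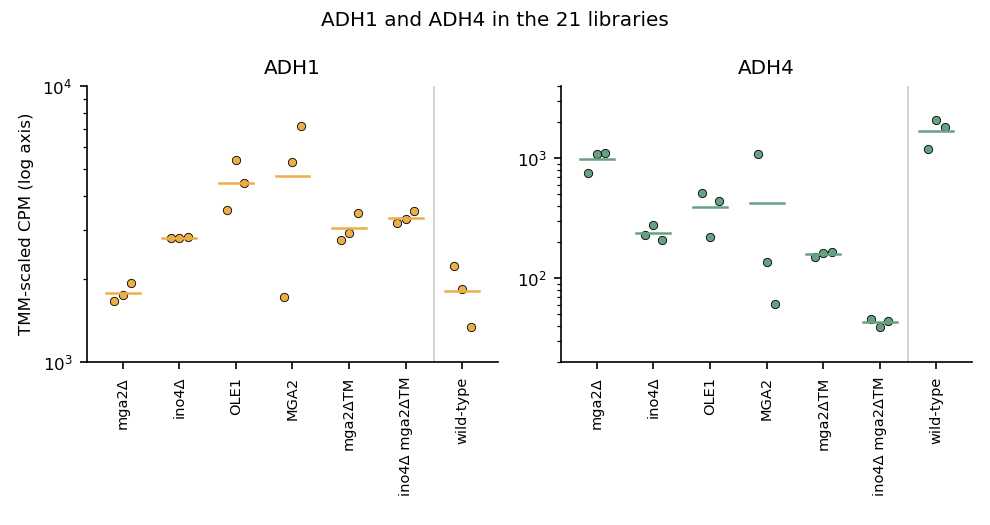
TMM-scaled CPM on a log axis of *ADH1* and *ADH4* in each library (points), with the mean of 3 libraries (bars) and wild-type at the right. The 3 *MGA2* libraries spread from 1726 to 7138 CPM in *ADH1* and from 1079 to 60.9 CPM in *ADH4*, in opposite order.

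Ratios between isoforms within a library do not depend on library scaling. The counts of *NQM1* were 11.8%, 16.6% and 16.7% of those of *TAL1* in *mga2Δ* and 21.4%, 20.5% and 24.9% in *ino4Δ*, against 1.03%, 1.44% and 1.04% in wild-type. Those of *TKL2* were 3.99%, 4.78% and 7.36% of *TKL1* in *ino4Δ*, against 0.15%, 0.266% and 0.146% in wild-type. *SOL4* came close to its major partner in *ino4Δ*, with 63.3%, 74.2% and 110% of the *SOL3* counts, against 12.5%, 23.9% and 9.77% in wild-type. *GLK1* approached *HXK2* in the same way, with 72.6%, 82.2% and 99.9% in *ino4Δ* and 74.2%, 87.9% and 75.4% in *ino4Δ mga2ΔTM*, against 25.5%, 42.1% and 20.1% in wild-type. *PDC6* stayed a small part of the pyruvate decarboxylase counts, at 0.508%, 0.31% and 0.385% of *PDC1* in *ino4Δ*, against 0.0194%, 0.023% and 0.015% in wild-type. The mean log2 ratio of the minor to the major gene was above wild-type for 12 of 14 minor genes in *mga2Δ*, 13 in *ino4Δ*, 12 in *OLE1*, 11 in *MGA2*, 10 in *mga2ΔTM* and 12 in *ino4Δ mga2ΔTM*. Every library lay above all wild-type libraries for 10, 12, 10, 6, 8 and 10 of these ratios in the same order of strains. *HXK2*, *TDH3*, *PDC1* and *ADH1* are each the denominator for a pair of minor genes, so the 14 ratios are not independent. The median shift over the 14 was 1.12, 1.82, 0.78, 0.62, 1.02 and 1.66 on the log2 scale in the same order. The ratio of *ADH3* to *ADH1* was below wild-type in all 6 strains, at log2 differences of -0.63 to -0.05. That of *ADH2* to *ADH1* was below wild-type in *OLE1*, *MGA2* and *mga2ΔTM*, that of *TDH2* to *TDH3* in *mga2Δ*, *MGA2*, *mga2ΔTM* and *ino4Δ mga2ΔTM*, and that of *ENO1* to *ENO2* in *mga2ΔTM*.

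The strains were also compared with each other. Between the plasmid-free deletion strains, 5 of 34 genes were higher and 7 lower in *ino4Δ* than in *mga2Δ*, beside 9.65% and 2.27% of all genes. The 5 higher genes were *PDC5*, *PDC6*, *ADH2*, *GND2* and *TKL2*, at log2 fold changes of 1.71 ± 0.22, 2.87 ± 0.23, 1.80 ± 0.27, 1.45 ± 0.22 and 1.36 ± 0.32. The 7 lower genes were *FBA1*, *TPI1*, *PGK1*, *TDH3*, *ENO2*, *CDC19* and *SOL3*, and 4 were lower without *mga2Δ* replicate 1. *NQM1*, *SOL4*, *HXK1* and *GLK1* had log2 differences of 0.21 ± 0.20, 0.12 ± 0.33, 0.05 ± 0.31 and -0.22 ± 0.24 and were not called between these strains. In *mga2ΔTM* against *mga2Δ*, 3 genes were higher and 4 lower, beside 5.63% and 7.27% of all genes. The lower genes were *NQM1* at -1.89 ± 0.22, *GLK1* at -0.91 ± 0.24, *GND2* at -0.80 ± 0.24 and *ENO1* at -0.72 ± 0.15, and the higher ones *PDC5* at 1.08 ± 0.22, *ADH3* at 0.94 ± 0.13 and *RPE1*, the ribulose 5-phosphate epimerase gene, at 0.66 ± 0.11. The *GND2* call was lost without *mga2ΔTM* replicate 1, *mga2ΔTM* replicate 3 or *mga2Δ* replicate 3, and the *RPE1* call without *mga2Δ* replicate 2 or 3. Without *mga2Δ* replicate 1, 7 genes were lower, with *HXK1*, *SOL4* and *PYK2* added.

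Soluble and membrane-bound Mga2 were compared in the same background and medium, as *mga2ΔTM* against *MGA2*. These strains also differed in the level of the plasmid genes. *MGA2* had 1303 CPM in *mga2ΔTM* and 3820 CPM in *MGA2* (2.93-fold, edgeR adjusted p = 3.5e-08), and the plasmid marker *URA3* had 256 and 773 CPM. The form of Mga2 and the level of its RNA therefore cannot be told apart. In this comparison 2 of the 34 genes were higher and 0 lower, beside 2.58% and 0.827% of all genes. *PDC5* had 67.5, 35.5 and 77.4 CPM in *mga2ΔTM*, against 36.6, 27.4 and 23.2 CPM in *MGA2* (2.07-fold, edgeR adjusted p = 0.00485), and *PDC6* had 7.49, 4.84 and 5.86 CPM, against 4.29, 2.41 and 2.91 CPM in *MGA2* (1.9-fold, adjusted p = 0.0472). *PDC6* lay next to the threshold and was not called with limma-voom, without the low-count filter or when any of many single libraries was left out. In the fit of only these strains 0 genes were higher. Without *MGA2* replicate 1, *ADH1* was called lower in *mga2ΔTM*, at -1.04 on the log2 scale.

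In *ino4Δ mga2ΔTM* against *ino4Δ*, 1 gene was higher and 7 lower, beside 4.3% and 5.16% of all genes. *ADH3* was higher, at 0.65 ± 0.13, and *HXK2*, *GLK1*, *ENO1*, *PDC6*, *ADH2*, *GND2* and *NQM1* were lower, at log2 fold changes of -0.65 to -0.99. The *GLK1* call was lost without any one of 4 libraries, those of *PDC6* and *ADH2* without any one of 3 and in a fit of these strains alone, and that of *HXK2* without *ino4Δ mga2ΔTM* replicate 2, which left 3 lower genes. Whether the plasmid changed a gene differently in the *ino4Δ* and *mga2Δ* backgrounds was tested with an interaction term chosen after the values were seen. These backgrounds differ in *MGA2* as well as in *INO4*, since *ino4Δ* keeps its own *MGA2*. With the 1.5-fold minimum 3.29% of all genes differed, and among the 34 it was *PDC5*, which had log2 fold changes of -0.27 in the *ino4Δ* background and 1.08 in the *mga2Δ* background (difference -1.35 ± 0.30, edgeR adjusted p = 0.0133). By adjusted p alone 6.34% of all genes differed, and among the 34 *SOL3* was added, with -0.04 in the *ino4Δ* background and -0.36 in the *mga2Δ* background (difference 0.33 ± 0.09, edgeR adjusted p = 0.0306).

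Other genes of the pathways and their regulators were read from lists of 18 and 12 genes. Of 16 tested neighbours, 4 were higher and 0 lower in *mga2Δ*, beside 9.52% and 2.38% of all tested genes. In *ino4Δ* 7 were higher and 3 lower, beside 19.2% and 10.1%. The counts were 0 and 1 in *OLE1* (6.08% and 0.99%), 0 and 0 in *MGA2* (3.42% and 0.552%) and 0 and 1 in *mga2ΔTM* (6.49% and 1.46%). In *ino4Δ mga2ΔTM* 4 were higher and 3 lower, beside 17.9% and 9.3%. *PFK26*, which makes the phosphofructokinase activator fructose 2,6-bisphosphate, had 90, 91.5 and 100 CPM in *ino4Δ* and 81.9, 75.6 and 71.1 CPM in *ino4Δ mga2ΔTM*, against 42.0, 50.2 and 40.3 CPM in wild-type, and was called higher in both. *PGM1*, the minor phosphoglucomutase, was called lower in *ino4Δ mga2ΔTM*, and *GPM3*, a non-functional relative of *GPM1*, in *ino4Δ*. *ERR3*, an enolase-related gene, had 2.75, 1.49 and 2.21 CPM in *ino4Δ* and 7.55, 5.05 and 4.24 CPM in *ino4Δ mga2ΔTM*, against 0.0, 0.354 and 0.132 CPM in wild-type. Its near-identical relatives *ERR1* and *ERR2* had 0 counts in all 21 libraries, and its own count is uncertain for the same reason.

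Among 12 transcriptional regulators, 3 were called higher in *mga2Δ* (9.52% of all tested genes), 4 in *ino4Δ* (19.2%) and 0 in *OLE1* (6.08%). In *MGA2* 1 was higher (3.42%), in *mga2ΔTM* 1 (6.49%) and in *ino4Δ mga2ΔTM* 3 (17.9%), where 1 was also lower (9.3%). With 12 genes, a count of 1 is not set apart from these shares. *ADR1*, an activator of glucose-repressed genes including *ADH2*, had 346, 344 and 316 CPM in *ino4Δ* and 271, 284 and 307 CPM in *ino4Δ mga2ΔTM*, against 161, 147 and 138 CPM in wild-type. It was 2.25-fold higher in *ino4Δ* (edgeR, adjusted p = 2.03e-09) and 1.57-fold higher in *mga2Δ* (adjusted p = 1.28e-05). *CAT8*, an activator of gluconeogenic genes, was called higher in *mga2Δ*, *ino4Δ*, *mga2ΔTM* and *ino4Δ mga2ΔTM*. *RAP1*, a general activator of glycolytic genes, was lower in *ino4Δ mga2ΔTM* at -0.63 on the log2 scale, and *MSN4* was higher in *ino4Δ* at 0.73 and in *MGA2* at 0.63.

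General stress genes were also called higher. All 8 stress genes were higher in *mga2Δ* and in *ino4Δ*, beside 9.52% and 19.2% of all tested genes. In the plasmid strains 4 were higher in *OLE1* (6.08%), 3 in *MGA2* (3.42%), 2 in *mga2ΔTM* (6.49%) and 7 in *ino4Δ mga2ΔTM* (17.9%). *ADH3* was called higher in these 4 strains and in neither plasmid-free deletion strain. In *ino4Δ* against *mga2Δ*, 2 of 8 stress genes and 5 of 14 minor isoforms were called higher, beside 9.65% of all tested genes. *HSP26*, a small heat shock protein, had 395, 513 and 475 CPM in *mga2Δ* and 1134, 1002 and 1180 CPM in *ino4Δ*, against 48.4, 53.0 and 37.1 CPM in wild-type. In the library of each strain with the highest stress gene sum, 7 to 10 of the 14 minor isoforms had their highest value of that strain, with 9 in wild-type. In the library with the lowest sum, 4 to 10 had their lowest value, with 4 in *ino4Δ mga2ΔTM*, 7 in *OLE1* and 10 in wild-type. Some would fall there even if spread evenly over the libraries of a strain. The part of culture state in the levels of the minor isoforms was not tested.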

How the data were processed

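RNA from exponentially growing cultures was extracted with hot phenol, depleted of ribosomal RNA and sequenced as single 50-base reads. The authors used STAR 2.5.1b for alignment (genome R64) and deposited raw counts per gene from HTSeq 0.5.4p3. The strand setting is not given in the sources used here. The table held 7122 features, and 4 empty lines were dropped.

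The deposited counts were analysed with edgeR 4.0.16 (TMM, robust quasi-likelihood, R 4.3.3) in a single fit of all 21 libraries with a mean per strain. Genes passed filterByExpr at a minimum count of 10, which left 6164, and p-values were adjusted over all of them by the Benjamini-Hochberg method. Libraries held 12552418 to 18372240 counts, and their number limits the precision. Same-strain libraries differed by more than sampling noise in all 21 pairs (chi-square per degree of freedom 6.98 to 52).

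The members and gene lists were chosen with earlier results of these data known. All members were described. Of the neighbour, regulator and stress lists, up to 4 genes with the smallest adjusted p were eligible by name. *ADH4*, *ZRT1* and the other zinc genes were added after values had been seen. In the comparison of *mga2ΔTM* with wild-type, and in no other, all 3 same-numbered pairs had deviations correlated above 0.1 (r = 0.105, 0.27 and 0.193), which met the criterion for pairing. The values given are from the fit without a block, and with the replicate block no call of the 34 genes changed there (6 higher and 1 lower).

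Alternatives were limma-voom (limma 3.58.1), DESeq2 1.42.0, RLE scaling, library totals, no low-count filter, a replicate block, only the compared strains, no fold threshold and leaving out each library. In data simulated for *ino4Δ* against wild-type with 5955 genes, 21 of 50 genes changed 1.5-fold were recovered, 48 of 50 at 2-fold and 50 of 50 at both 3-fold and 4-fold, with 2 false calls. The changed genes were drawn from those with a mean expected count above 50, so recovery of weaker genes such as *ADH2* was not examined. A true 1.5-fold change lies at the minimum for a call. Isoform windows, coordinates and motifs came from the RefSeq R64 genome, with Python 3.11.15, pandas 2.3.3, numpy 2.4.6 and matplotlib 3.10.9.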

Additional observations from a re-analysis of the deposited data

Results flagged for a closer look

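The change that accompanied the *mga2ΔTM* plasmid differed between the *ino4Δ* and *mga2Δ* backgrounds for *PDC5* with the 1.5-fold minimum, and by adjusted p alone for 2 of the 34 genes, beside 3.29% and 6.34% of all genes. The counts among the 34 genes are near these shares. This test of the difference itself was chosen after the values were seen. For *PDC5* the difference was -1.35 ± 0.30 on the log2 scale (edgeR, adjusted p = 0.0133). *PDC5* had 71.5, 76.1 and 84.1 CPM in *ino4Δ mga2ΔTM*, against 116, 78.9 and 84.7 CPM in *ino4Δ*, and 67.5, 35.5 and 77.4 CPM in *mga2ΔTM*, against 28.4, 27 and 30.2 CPM in *mga2Δ*. For *SOL3* the difference was 0.33 ± 0.09 (edgeR, adjusted p = 0.0306), under the 1.5-fold minimum, with 61.5, 72.9 and 68.1 CPM in *ino4Δ mga2ΔTM*, against 69.6, 68 and 70.3 CPM in *ino4Δ*, and 86.9, 82.4 and 84.6 CPM in *mga2ΔTM*, against 112, 107 and 107 CPM in *mga2Δ*. Strains with and without plasmid also differ in medium, so plasmid and medium cannot be told apart in either difference. *MGA2* had 201 CPM in *ino4Δ*, which keeps its own copy, and 0.503 CPM in *mga2Δ*. In *ino4Δ mga2ΔTM* and *mga2ΔTM* it had 1932 and 1303 CPM. Loss of *INO4* and the level of *MGA2* therefore cannot be told apart either.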

How the results depend on the processing

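No called fold change of the 34 genes in the 10 comparisons reversed under any alternative run. With library totals as the scaling, 0 genes were lower in *mga2Δ* and 0 in *mga2ΔTM*, 7 in *ino4Δ* and 8 in *ino4Δ mga2ΔTM* against wild-type, and 3 in *ino4Δ* against *mga2Δ*. In fits of only the compared strains, 0 genes were lower in *mga2Δ* and 1 was higher in *MGA2* against wild-type, and 0 were higher in *mga2ΔTM* against *MGA2*. Without a fold threshold, 10 were lower in *mga2Δ*, 9 in *OLE1*, 8 in *MGA2* and 7 in *mga2ΔTM* against wild-type, and 16 in *ino4Δ* against *mga2Δ*. In the same setting 6 were higher and 8 lower in *mga2ΔTM* against *mga2Δ*, 5 higher in *mga2ΔTM* against *MGA2* and 4 higher in *ino4Δ mga2ΔTM* against *ino4Δ*. The share of all genes without a fold threshold was not computed for these comparisons, and the shares in the other alternative runs are not given here. With limma-voom and with no low-count filter, 1 gene each was higher in *mga2ΔTM* against *MGA2*. The cause of these shifts was not tested. Leaving out 1 library at a time gave 0 to 1 lower genes in *mga2Δ*, 0 to 1 lower in *OLE1*, 2 to 8 higher and 1 to 2 lower in *MGA2* against wild-type, 4 to 7 lower in *ino4Δ* against *mga2Δ*, 3 to 7 lower in *mga2ΔTM* against *mga2Δ*, 1 to 2 higher and 0 to 1 lower in *mga2ΔTM* against *MGA2*, and 1 to 2 higher and 3 to 8 lower in *ino4Δ mga2ΔTM* against *ino4Δ*. Outside *mga2ΔTM* against wild-type the samples share only a number, as 20 of 63 same-numbered pairs had r above 0.1. There the replicate block gave 5 higher genes in *MGA2*, 7 higher in *OLE1* and 15 lower in *ino4Δ mga2ΔTM*, and it moved no other count of the members. Depth limits *ADH2*, *PDC6*, *TKL2* and *ERR3* most, and 3 libraries per strain limit changes near 1.5-fold.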
